A study of Mus musculus with 28 samples.

Results

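Interleukin 6 family signalling in healing mouse skin was followed through 10 genes. They were the ligands Il6, Il11, Lif, Osm and Clcf1, the receptor chains Il6ra, Il6st and Osmr, the transcription factor Stat3 and its feedback inhibitor Socs3. The genes were listed by name as parts of the pathway, with earlier results of these data known. They were 10 of the 29068 genes in the count table, and all 10 were among the 18107 genes that passed the filter on low counts and were tested. RNA was sequenced from skin at the wound site of C57BL/6J (MLKL+/+) mice, 8 weeks old and of both sexes, after a 6-mm punch through the back skin down to the fascia. The wounds healed without treatment, and the whole site was taken with its scab and margins. The 28 libraries fell into 7 groups of 4, labelled day 0, 3, 5, 7, 10, 12 and 14. The labels name day 0 as the control, while the methods of the study give day 1 after injury as the earliest collection, and it counts the day of injury as day 1, so whether day 0 was unwounded skin is not given in the sources used here.

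Cytokines of the interleukin 6 family share the signalling chain gp130, the product of Il6st. Each ligand reaches it through a partner: interleukin 6 through the Il6ra product, interleukin 11 through its own receptor, leukemia inhibitory factor through Lifr, oncostatin M through Osmr and cardiotrophin-like cytokine factor 1 through the ciliary neurotrophic factor receptor. The bound chains activate Janus kinases, which phosphorylate STAT3, and STAT3 induces Socs3, whose product binds gp130 and stops the signal. In skin, these cytokines come from leukocytes, fibroblasts and keratinocytes, and oncostatin M acts on keratinocytes during wound repair.

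Each library held 36706513 to 40655764 counts. The day 0 libraries varied more than those of any other day, with a biological coefficient of variation of 26.4% against 5.70% to 10.8% on the other days. They fell into 2 pairs. Summed matrix fibroblast markers (5 genes) were 38286 and 36755 CPM (counts per gene scaled to a common library total) in day 0 replicates 2 and 3 and 17644 and 10289 CPM in replicates 1 and 4, while summed skeletal muscle markers (4 genes) were 15000 and 15310 CPM in the former and 24190 and 25374 CPM in the latter. The sources used here do not say which animals gave which libraries, so p-values measure the spread between these libraries, which may be technical. In whole tissue, fewer cells of a type and less RNA per cell cannot be told apart.

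Most members were higher on day 3 than on day 0, and most were lower on day 14. Against day 0, 9 of the 10 genes were higher on day 3 and none was lower, at an adjusted p under 0.05 in edgeR's quasi-likelihood test. Of all genes tested, 31.8% were higher and 34.8% lower on day 3. By day 14, 8 of the 10 genes were lower than on day 0, 1 was higher (Clcf1) and 1 was not called (Il11), where 34.5% of all genes were lower and 28.2% higher. The members' median log2 fold change was 1.96 on day 3 and -0.91 on day 14, beside medians of -0.03 and -0.06 over all genes tested. The comparisons with day 0 share its 4 libraries and are not independent of each other. The fit takes the spread of a gene from all 7 days together, so the wider spread of day 0 enters these p-values only in part. In a fit of only the 8 libraries of day 14 and day 0, the calls of Lif and Osm were among those lost (edgeR adjusted p = 0.084 and 0.059).

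**Figure D1:**
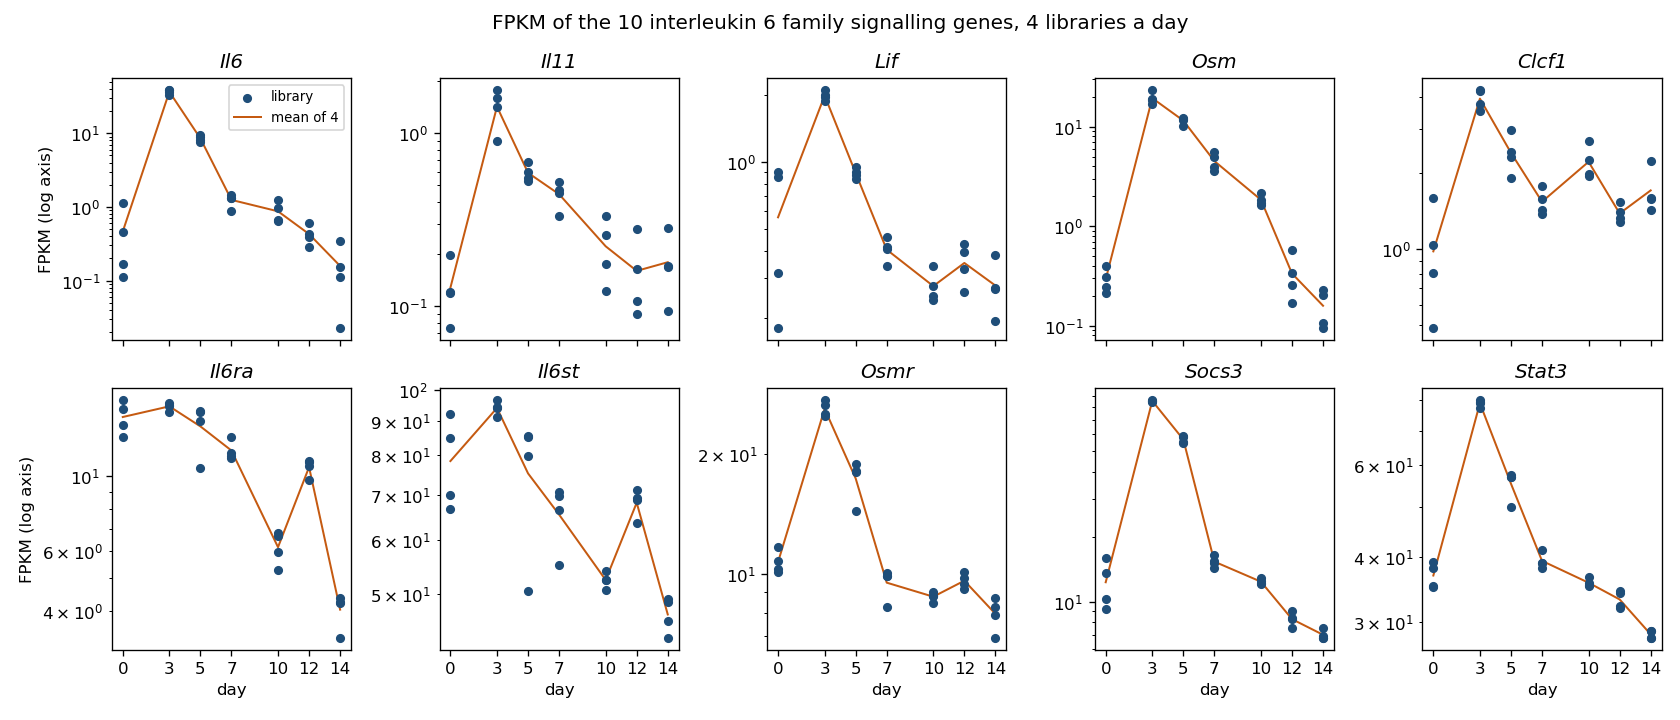
FPKM (fragments per kilobase of gene, scaled to the library total, log axis) of each gene against the day, with 1 point per library, 4 libraries a day, and a line through the daily means. In all 10 panels the mean is highest on day 3, and the day 0 libraries of Il6, Lif and Clcf1 are spread more widely than those of day 3.

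Il6 (chr5:30013114-30019981, plus strand, GRCm38), the founding ligand of the family and a product of leukocytes and stromal cells in inflamed tissue, went from 1.12, 0.455, 0.112 and 0.167 FPKM in day 0 replicates 1 to 4 to 38.1, 36.7, 32.9 and 38.2 FPKM on day 3. All day 3 libraries were far above all day 0 libraries. The log2 fold change was 6.33 ± 0.35 (SE, n = 4 per day), an 80.7-fold rise with an adjusted p of 4.60e-15 in edgeR. With 1 library left out, the log2 fold change ranged from 6.01 to 7.29. Il6 then fell to 9.47, 8.07, 7.48 and 8.94 FPKM on day 5 and to 1.33, 0.872, 1.32 and 1.45 FPKM on day 7, a drop of 4.34 times and then of 7.02 times, each past the threshold. Day 10 (0.643 to 1.22 FPKM) did not differ from day 7 by the test. Against day 0, Il6 was not called on day 10 (log2 fold change 0.84), but it was called higher without day 0 replicate 1 (1.75, edgeR adjusted p = 0.00033). Limma with library weights also called it higher (1.73, adjusted p = 0.012), as did limma on log2(FPKM + 1) and log2(FPKM + 0.1). On day 14, Il6 had 5, 1, 7 and 15 counts in the 4 libraries and 0.0226 to 0.342 FPKM, which overlapped with day 0. Its log2 fold change on day 14 against day 0 was -1.67 ± 0.54 (edgeR adjusted p = 0.00884), but -0.69 (adjusted p = 0.25) without day 0 replicate 1, which held 50 of the reads counted on Il6 that day, where the other 3 libraries held 21, 5 and 7.

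Osm (chr11:4236420-4241026, plus strand), which encodes oncostatin M, a cytokine of neutrophils, macrophages and T cells, was at 0.309, 0.246, 0.400 and 0.214 FPKM on day 0 and at 17.0, 18.3, 18.8 and 23.2 FPKM on day 3. The groups were far apart, with a log2 fold change of 6.09 ± 0.24 (68.2-fold, edgeR adjusted p = 2.67e-18). From day 3 to day 5 Osm dropped 1.70 times, beside 4.34 times for Il6, a difference that was not tested. Osm still stood at 10.2 to 12.3 FPKM on day 5, 3.61 to 5.53 FPKM on day 7 and 1.64 to 2.18 FPKM on day 10, where all 4 libraries were above all day 0 libraries and the fold against day 0 was 6.03. Between day 10 and day 12 it dropped 5.83 times, to 0.575, 0.335, 0.259 and 0.170 FPKM, which overlapped with day 0. On day 14 all 4 libraries (0.0944 to 0.230 FPKM, 7 to 17 counts) had lower log2 CPM after TMM normalization than all day 0 libraries, although the FPKM values overlapped (log2 fold change -1.01 ± 0.35, adjusted p = 0.0130 in edgeR). That call was lost without day 0 replicate 3 (-0.78, adjusted p = 0.080) or day 14 replicate 1 (-0.83, adjusted p = 0.052).

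Il11 (chr7:4772373-4782859, minus strand), a ligand known for its action on fibroblasts, was low throughout. It was at 0.0748, 0.198, 0.121 and 0.119 FPKM on day 0 and at 0.900, 1.61, 1.77 and 1.42 FPKM on day 3, with no overlap (log2 fold change 3.52 ± 0.35, edgeR adjusted p = 1.01e-09). It remained above day 0 in every library of day 5 (0.529 to 0.688 FPKM) and day 7 (0.333 to 0.523 FPKM). Log2 fold changes were 2.23 and 1.78 on these days. From day 10 on it overlapped with day 0 and was not called, although on day 10 it was called higher without day 0 replicate 2 (1.03, adjusted p = 0.044) or day 10 replicate 1 (0.94, adjusted p = 0.046).

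Lif (chr11:4257557-4272514, plus strand) encodes leukemia inhibitory factor, a ligand of the Lifr and gp130 pair. On day 0 it stood at 0.857 and 0.902 FPKM in replicates 2 and 3 and at 0.318 and 0.179 FPKM in replicates 1 and 4, the same pairs that the fibroblast and muscle markers form. On day 3 it was 2.00, 2.10, 1.89 and 1.96 FPKM, above all day 0 libraries (log2 fold change 1.87 ± 0.28, edgeR adjusted p = 1.46e-06). Day 5 (0.841 to 0.947 FPKM) overlapped with day 0. Its log2 fold change of 0.70 ± 0.28 (edgeR adjusted p = 0.0348) was 0.07 (adjusted p = 0.76) with day 0 replicates 1 and 4 left out. The call was also lost without day 0 replicate 1 (0.51) or 4 (0.42), and without day 5 replicate 1, 2 or 3. It was at 0.241 to 0.340 FPKM on day 10 and 0.193 to 0.381 FPKM on day 14, with log2 fold changes of -1.08 and -1.15 against day 0 that passed the test. These rest on day 0 replicates 2 and 3: with both left out, the values were 0.09 (adjusted p = 0.79) and 0.10 (adjusted p = 0.74). On day 7 (0.339 to 0.458 FPKM) Lif overlapped with day 0 and was not called (-0.49 ± 0.29, edgeR adjusted p = 0.166). That value was -1.12 (adjusted p = 2.4e-06) with day 0 replicates 1 and 4 left out, 0.68 (adjusted p = 0.014) with replicates 2 and 3 left out, and -0.94 (adjusted p = 0.00067) in limma with library weights. The call as lower on day 12 (-0.83 ± 0.29, edgeR adjusted p = 0.0220) was lost without day 0 replicate 2 or 3 (-0.55 and -0.51) or day 12 replicate 1 or 4 (-0.72 and -0.80). The part of the cell mixture in this was not tested.

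Clcf1 (chr19:4214238-4223490, plus strand) encodes cardiotrophin-like cytokine factor 1, a ligand that signals through gp130 and Lifr. It was at 1.59, 1.04, 0.487 and 0.807 FPKM on day 0 and at 4.25, 3.76, 3.53 and 4.26 FPKM on day 3, without overlap (log2 fold change 2.06 ± 0.21, edgeR adjusted p = 2.21e-09). On day 10 it was 2.26, 2.69, 1.98 and 1.95 FPKM, again above every day 0 library (log2 fold change 1.12 ± 0.21, adjusted p = 8.34e-05). On day 14 it was 1.44 to 2.23 FPKM, which overlapped with day 0, and the log2 fold change of 0.67 ± 0.22 (edgeR adjusted p = 0.00889) became 0.45 (adjusted p = 0.081) with day 0 replicates 2 and 3 both left out. In the annotation, 311 exon bases of Clcf1 are shared with the readthrough gene AC109138.7 on the same strand, so reads of the 2 genes may not be separable.

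Among these 5 ligands, the one with the highest FPKM, a scale that divides by a gene length, changed over the days. The 5 ligands summed to 2.43 ± 0.85 FPKM on day 0 (SD, n = 4), 63.1 ± 4.2 FPKM on day 3, 23.9 ± 1.2 FPKM on day 5 and 8.14 ± 1.1 FPKM on day 7. Il6 held 57.8% ± 2.7 of that sum on day 3 and was the highest ligand in 4 of 4 libraries. Osm held 48.1% ± 2.8 on day 5 and 55.1% ± 4.8 on day 7 and led in 4 of 4 libraries on each. On day 10 Clcf1 led in 3 libraries and Osm in 1, with mean shares of 40.8% and 34.1%. Clcf1 led in 4 of 4 libraries on day 12 (52.5% ± 4.8) and on day 14 (69.1% ± 4.6). On day 0 Clcf1 led in 3 libraries and Lif in replicate 3. Ctf1, a family ligand outside these 5, was at 2.34 to 3.78 FPKM on day 0, 1.07 to 1.499 FPKM on day 3, 2.35 to 3.02 FPKM on day 10, 2.51 to 2.87 FPKM on day 12 and 3.55 to 4.63 FPKM on day 14. All Ctf1 values of days 0, 12 and 14 were above all Clcf1 values of the same day, so that Clcf1 led there among the 5 ligands and not in the whole family. The FPKM values imply lengths of 1141 bases for Il6, 1907 for Osm and 2092 for Clcf1. In GENCODE vM21 their exons cover 2428, 2272 and 3806 bases. The order of Il6 and Osm on day 3, and of Osm and Clcf1 on day 10, depends in some libraries on the length used. These shares are a description and were not tested.

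**Figure D2:**
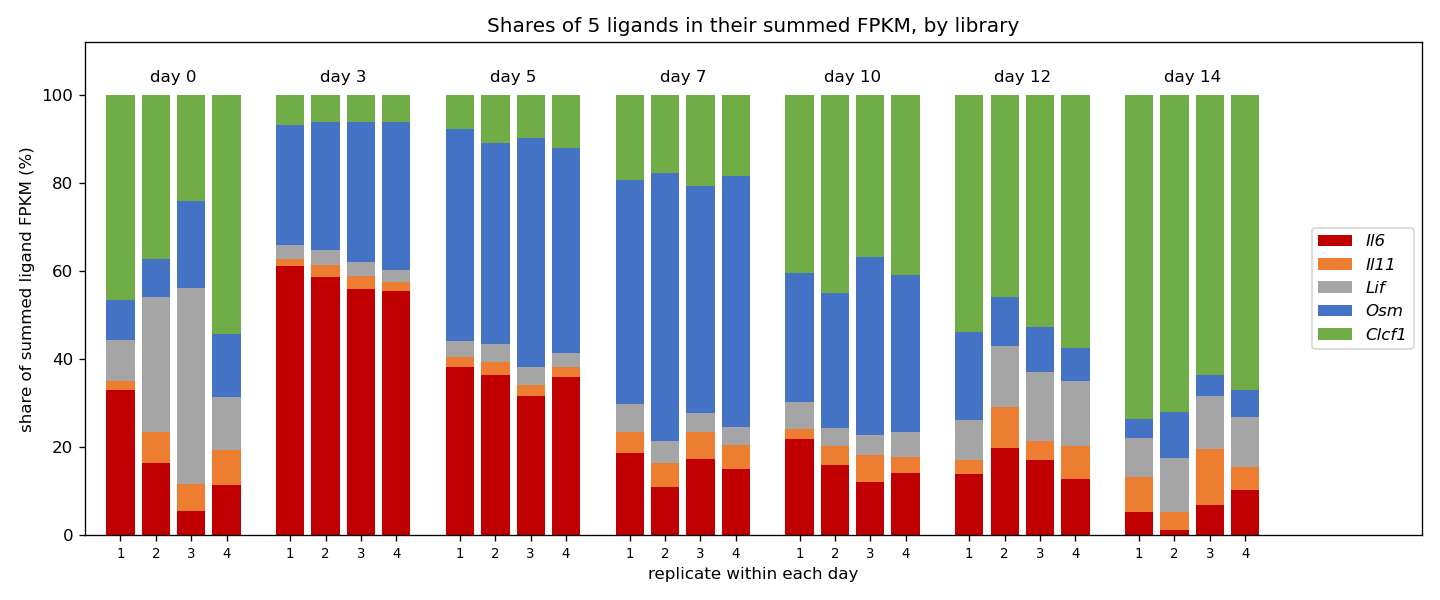
Share (%) of each of 5 ligands (Ctf1 is not among them) in their summed FPKM, 1 stacked bar per library, 4 replicates for each day. Il6 takes the largest part in all day 3 libraries, Osm in all libraries of days 5 and 7, and Clcf1 in all libraries of days 12 and 14.

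Promoters were searched because the ligands rose together on day 3. RefSeq windows of 250 bases before to 50 bases after the start (GRCm38.p6) were found for 8 of the 10 genes in 9 windows, and Osm and Clcf1 were not matched. The AP-1 motif TGACTCA, searched on both strands, was in 3 of the 9 windows (Il6, Il11 and Lif) and in 5.20% of all 32851 windows. The NF-kB motif, searched on both strands, was in the windows of Il6 and Lif and in 8.46% of all windows. The stretches that hold these matches are given 5′ to 3′ on the gene's strand, with the matches in capitals. They are chr5:30012864-30012914 and chr5:30013034-30013103 (plus strand) for Il6, chr7:4778190-4778279 (minus strand, from 1 of the 2 Il11 windows) and chr11:4257320-4257429 (plus strand) for Lif. A match is a description of letters and not a measured binding site.
Il6, 250 to 200 bases before the start, AP-1: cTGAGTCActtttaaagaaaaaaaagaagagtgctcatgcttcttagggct
Il6, 80 to 11 bases before the start, NF-kB: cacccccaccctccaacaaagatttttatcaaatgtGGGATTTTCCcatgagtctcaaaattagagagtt
Il11, 138 to 49 bases before the start, AP-1: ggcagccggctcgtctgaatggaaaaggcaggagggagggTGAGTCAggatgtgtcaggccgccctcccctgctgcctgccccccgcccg
Lif, 248 to 139 bases before the start, AP-1 then NF-kB: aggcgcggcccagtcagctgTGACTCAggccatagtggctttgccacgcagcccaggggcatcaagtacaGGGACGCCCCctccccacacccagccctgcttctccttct

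The receptor chains had smaller fitted changes than the ligands on day 3. Il6st (chr13:112464070-112510086, plus strand), the shared gp130 chain, was at 70.04, 92.2, 85.0 and 66.7 FPKM on day 0 and at 94.1, 96.5, 94.2 and 91.1 FPKM on day 3. The day 3 libraries had higher log2 CPM after TMM normalization than every day 0 library, although 1 FPKM value of day 0 lay within the day 3 range, by a log2 fold change of 0.32 ± 0.12 (edgeR adjusted p = 0.0174), but not past the test with day 0 replicates 1 and 4 left out (0.15, adjusted p = 0.29) or with upper-quartile normalization (0.22, adjusted p = 0.084). It was 50.7 to 54.1 FPKM on day 10, 63.6 to 71.1 FPKM on day 12 and 43.01 to 49.2 FPKM on day 14. The log2 fold changes of -0.64 on day 10 and -0.88 on day 14 passed the test, and all libraries of both days were below all day 0 libraries. The call as lower on day 12 (-0.35) was lost without day 0 replicate 2 (-0.26) or 3 (-0.30) or day 12 replicate 2 (-0.31).

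Il6ra (chr3:89864059-89913196, minus strand), the chain that binds interleukin 6, did not pass the test on day 3. It was at 15.8, 14.2, 13.1 and 16.7 FPKM on day 0 and at 16.4, 16.2, 16.1 and 15.5 FPKM on day 3 (log2 fold change 0.16 ± 0.10, edgeR adjusted p = 0.155). It passed as higher when day 0 replicate 1 (0.24, adjusted p = 0.048) or replicate 4 (0.27, adjusted p = 0.025) was left out. It then fell in steps with a return between: 11.3, 11.7, 11.5 and 13.1 FPKM on day 7, 6.67, 5.28, 5.95 and 6.77 FPKM on day 10, 11.1, 9.72, 10.99 and 10.7 FPKM on day 12, and 3.32, 4.21, 4.24 and 4.36 FPKM on day 14. No library of day 10 overlapped with day 7 or day 12, and none of day 14 with day 12. The log2 changes were -0.999 ± 0.102 from day 7 to day 10, 0.70 ± 0.10 from day 10 to day 12 and -1.38 ± 0.10 from day 12 to day 14, each past the threshold in edgeR. Il6st rose from day 10 to day 12 as well, by 0.29 ± 0.12 (edgeR adjusted p = 0.0481), a call that 7 of the 8 single-library omissions removed. Against day 0, Il6ra on day 14 was 4.05 times lower, the largest fall of any member on that day in the fit of all libraries. With 1 library left out, its log2 fold change ranged from -2.06 to -1.88, beside -2.35 to -0.69 for Il6. The exons of Il6ra share 242 bases with the antisense gene Gm42809.

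Osmr (chr15:6813577-6874969, minus strand), the chain that oncostatin M uses with gp130, was at 11.7, 10.1, 10.3 and 10.8 FPKM on day 0 and at 27.3, 26.5, 25.2 and 24.97 FPKM on day 3, a 2.52-fold rise without overlap (log2 fold change 1.33 ± 0.08, edgeR adjusted p = 9.41e-15). It was 14.4 to 19.0 FPKM on day 5, still above every day 0 library, and 6.91 to 8.70 FPKM on day 14, below every day 0 library (log2 fold change -0.56 ± 0.08). Lifr, the chain for leukemia inhibitory factor, moved the other way on day 3, from 9.46 to 12.2 FPKM on day 0 to 8.13 to 8.77 FPKM (log2 fold change -0.25 ± 0.07, adjusted p past the threshold). The ratio of Osmr to Lifr FPKM within a library was 1.03 ± 0.10 on day 0 (SD, n = 4), 3.05 ± 0.13 on day 3 and 1.93 ± 0.11 on day 14. It was higher in all 4 libraries of day 3 and of day 14 than in any day 0 library (exact two-sided permutation test, p = 0.0286 for each, the smallest that 4 against 4 allows, and 0.0381 adjusted over the 4 ratio tests). The ratio of Il6ra to Il6st was 0.196 ± 0.050 on day 0, 0.171 ± 0.003 on day 3 (exact permutation p = 0.429) and 0.0863 ± 0.0066 on day 14 (exact permutation p = 0.0286, adjusted 0.0381). On day 0 this ratio fell into the pairs of the markers, at 0.154 in replicates 2 and 3 and at 0.225 and 0.251 in replicates 1 and 4. The day 3 libraries (0.168 to 0.175) lay between these pairs.

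**Figure D3:**
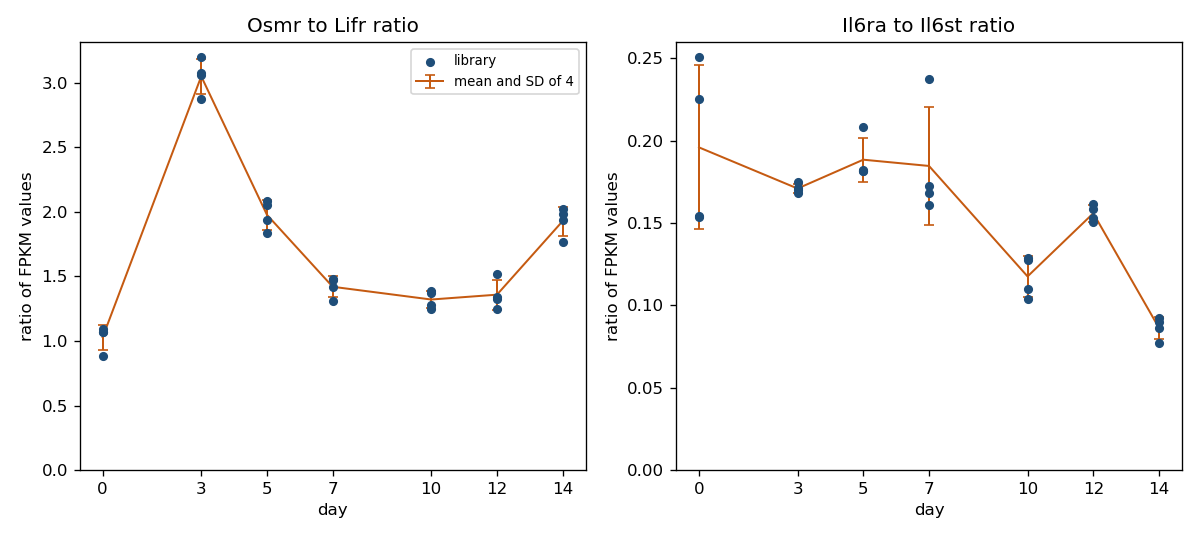
Ratios of FPKM values within each library (points) against the day, with the mean and SD of 4 libraries (line and bars); left Osmr to Lifr, right Il6ra to Il6st. The left ratio peaks near 3 on day 3, and the right ratio is lowest on day 14.

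Stat3 (chr11:100885098-100939540, minus strand), the transcription factor that the family activates, was at 38.1, 35.3, 35.0 and 39.1 FPKM on day 0 and at 79.1, 80.0, 79.6 and 77.2 FPKM on day 3. The groups were well apart, a 2.23-fold rise (log2 fold change 1.16 ± 0.05, edgeR adjusted p = 6.82e-17). It returned to 38.2 to 41.2 FPKM on day 7 and was not called there. On that day it was called higher in limma with library weights (0.16, adjusted p = 0.0045) and in edgeR without day 0 replicates 1 and 4 (0.17, adjusted p = 0.020). It stood at 27.96, 27.96, 28.9 and 28.9 FPKM on day 14, below every day 0 library (-0.50 ± 0.05, edgeR adjusted p = 2.64e-09). Of its exon bases, 72 overlap with Stat5a on the opposite strand, and without knowledge of strand in the counting reads there cannot be assigned.

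Socs3 (chr11:117966079-117970047, minus strand), the feedback inhibitor of gp130 signalling, went from 16.0, 9.19, 10.3 and 13.6 FPKM on day 0 to 85.1, 86.2, 85.5 and 86.4 FPKM on day 3 and 54.9 to 58.7 FPKM on day 5. Both days were above every day 0 library, with log2 fold changes of 2.86 ± 0.11 (7.26-fold, edgeR adjusted p = 1.14e-18) and 2.25 ± 0.10. Between day 5 and day 7 it dropped 3.82 times to 14.3, 16.5, 15.4 and 15.0 FPKM, beside a drop of 1.45 times for Stat3, a difference that was not tested. On day 12 (7.51 to 9.003 FPKM) and day 14 (6.75 to 7.52 FPKM) every library was below every day 0 library. The log2 fold change on day 14 was -0.94 ± 0.10 (edgeR adjusted p = 9.68e-09). Its promoter is shown because it held the only match among the 9 windows to the STAT motif TTCNNNGAA, which is its own reverse complement and was in 8.30% of all windows. The form with a spacer of 4 bases was in 6.95% of all windows and, of the members, at the other Il11 start only. The stretch is chr11:117969463-117969560 on the minus strand (GRCm38.p6, RefSeq), with the match in capitals.
Socs3, 194 to 97 bases before the start, STAT: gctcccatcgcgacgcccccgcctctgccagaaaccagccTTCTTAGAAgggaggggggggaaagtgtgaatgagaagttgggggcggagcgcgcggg

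**Figure D4:**
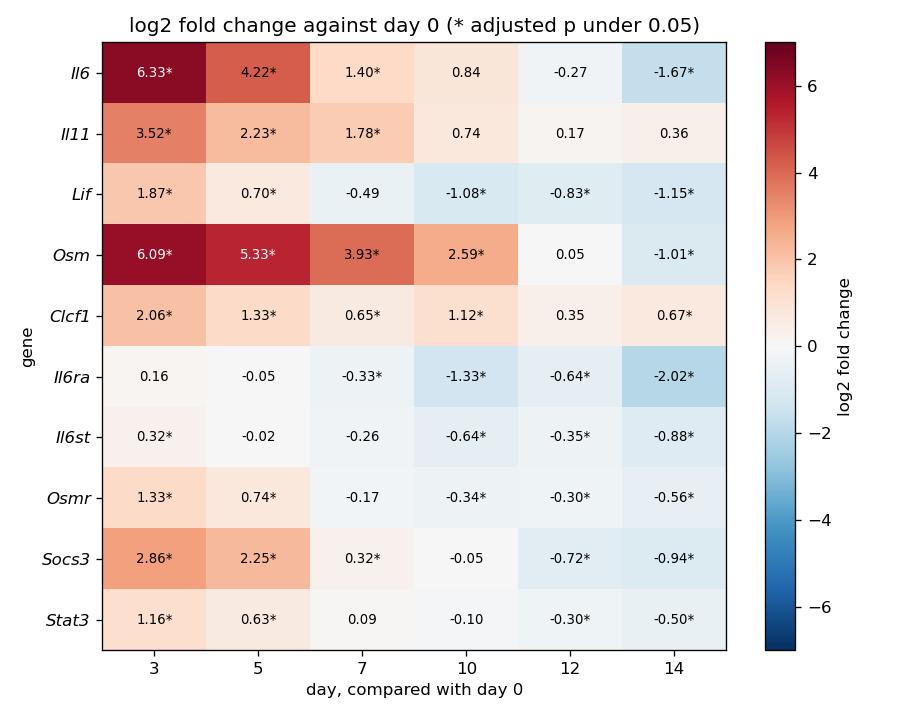
Log2 fold change of each gene (rows) on each later day (columns) against day 0, colour from -7 to 7, with an asterisk where the edgeR adjusted p is under 0.05. Values run from 6.33 for Il6 on day 3 to -2.02 for Il6ra on day 14, and the ligands Il6 and Osm have the deepest red.

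The counts of called members by day were as follows. On day 5, 8 members were higher than on day 0 and none was lower, beside 29.0% and 30.6% of all genes. On day 7, 5 were higher and 1 lower (Il6ra), beside 25.6% and 24.8%. That Il6ra call (-0.33) was lost with day 0 replicates 1 and 4 left out (-0.19, edgeR adjusted p = 0.14). On day 10, 2 were higher (Osm and Clcf1) and 4 lower (Lif, Il6ra, Il6st and Osmr), beside 23.5% and 26.9%. On day 12, none was higher and 6 were lower (Lif, Il6ra, Il6st, Osmr, Socs3 and Stat3), beside 21.7% and 25.6% of all genes. The split of all calls against day 0 moved with the scaling, most on days 12 and 14: with library totals only, 67.4% and 56.2% of calls were higher, against 45.8% and 45.0% with TMM normalization. On day 10 it was 54.1% with library totals and 52.1% with upper-quartile normalization against 46.6%, and on day 3 40.2% with upper-quartile normalization against 47.8%. By the limits of the study (an unadjusted P under 0.05 with a log2 change above 1.5), 6, 4, 2, 1, 0 and 0 members were higher on days 3, 5, 7, 10, 12 and 14, where 6.50%, 5.61%, 4.66%, 4.33%, 3.89% and 5.15% of all genes were.

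From one sampled day to the next, the members mostly fell. On day 5 against day 3, 9 were lower and none higher, while 11.4% of all genes were lower and 12.9% higher. On day 7 against day 5, 8 were lower and none higher (14.6% and 13.9% of all genes). On day 10 against day 7, 6 were lower and none higher (18.0% and 14.3%). On day 12 against day 10, 5 were lower and 2, Il6ra and Il6st, were higher (20.7% and 18.7%). On day 14 against day 12, 6 were lower and none higher (25.3% and 19.9%). With 1 library left out, 4 to 6 were lower on day 14 against day 12 and 4 to 5 on day 12 against day 10. The split of all calls moved with the scaling here too. With library totals only, 58.9%, 55.5% and 63.7% of calls were higher on day 7 against 5, day 10 against 7 and day 12 against 10, and with upper-quartile normalization 60.4% and 54.7% on the former pair, where TMM normalization gave 48.8%, 44.2% and 47.5%. With upper-quartile normalization it was 61.5% against 53.1% for day 5 against 3 and 51.1% against 44.0% for day 14 against 12. The counts of 0 in the comparisons above were also 0 at an unadjusted p under 0.05 in edgeR and with DESeq2 and limma, except 2. For higher members on day 12 against day 0, limma with library weights or on FPKM called 1, and for day 10 against day 7 the unadjusted p, DESeq2, limma with library weights and limma on log2(FPKM + 1) each gave 1 (Clcf1 in each case). Day 3 was first in the order of mean log2 CPM for all 10 members. Of the 60 neighbouring pairs in these orders, 31 differed. Osm had the most distinct order, with 5 of 6 pairs apart and only day 0 and day 12 not passing the test, and Clcf1 the least distinct, with only day 3 above day 5 passing the test.

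The other ligands and receptors of the family were called in both directions. Of 13 listed genes, 11 were in the table and 10 were tested, since Il31 and Ctf2 had no row and Cntf (0 to 10 counts) did not pass the filter. On day 3, 4 of the 10 were higher (Il27, Ebi3, Cntfr and Il27ra), 3 lower (Ctf1, Lifr and Il31ra) and 3 not called, with a median log2 fold change of 0.08, beside 31.8% higher and 34.8% lower over all genes tested. On day 5, 2 were higher and 5 lower (29.0% and 30.6% of all genes), and on day 14, 3 were higher and 4 lower (28.2% and 34.5%). Il31ra, a receptor chain for the itch cytokine interleukin 31, had 1.88 to 3.98 FPKM on day 0 and 0.285 to 0.543 FPKM on day 3 (log2 fold change -2.64 ± 0.22), and was lower on all 6 later days. Cntfr, the chain for the Clcf1 product, rose late, from 2.19 to 3.28 FPKM on day 0 to 8.04 to 8.85 FPKM on day 12 and 12.3 to 15.3 FPKM on day 14 (log2 fold change 2.34 ± 0.11). Ctf1, cardiotrophin 1, was lower on days 3, 5 and 7 (-1.21, -1.39 and -0.55). Ebi3, a shared cytokine subunit, was at 5.58 to 8.82 FPKM on day 5 and at 1.36 to 1.74 FPKM on day 14 (-1.87 ± 0.15 against day 0). Il27 had at most 27 counts in a library. Il27ra rose on day 3 by 0.85 ± 0.17. Il11ra1, a chain for interleukin 11, was at 107 to 114 FPKM on day 14 against 52.5 to 75.8 FPKM on day 0 (0.68 ± 0.08), but shares near-identical copies with Il11ra2 and its reads may be divided between them.

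Among 18 kinases, other STATs and regulators, 9 were higher, 4 lower and 5 not called on day 3, with a median log2 fold change of 0.20, where 31.8% of all genes were higher and 34.8% lower. Jak2, a kinase bound to gp130, rose by 1.01 ± 0.06, from 6.37 to 7.30 FPKM on day 0 to 12.7 to 13.7 FPKM. Stat5a, which shares exon bases with Stat3, rose by 1.21 ± 0.06, and Ptpn2, a phosphatase that acts on Janus kinases, by 0.96 ± 0.07. Gab1, an adaptor that links gp130 to the MAP kinases, fell by 0.25 on the log2 scale and Pias3, an inhibitor of STAT3, by 0.26. On day 14, 3 of the 18 were higher and 11 lower, where 28.2% and 34.5% of all genes were.

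Of 25 genes that textbooks list as responsive to STAT3, 21 were higher, 2 lower and 2 not called on day 3 (median log2 fold change 2.24, with 31.8% of all genes higher and 34.8% lower). The list mixes acute phase, survival and immediate-early genes, most of which other signals also induce. Saa3, an acute phase protein, had 1.53 to 49.5 FPKM on day 0 and 4174 to 4947 FPKM on day 3 (log2 fold change 8.06 ± 0.61). Lcn2, lipocalin 2, had 6.48 to 12.6 FPKM on day 0 and 945 to 974 FPKM on day 3 (6.71 ± 0.16). Reg3g, an antimicrobial lectin, had no counts in any day 0 library and 62 to 75 counts on day 3, at least 22.4-fold higher against a floor of 3 counts per library. Ccnd1, which encodes cyclin D1, fell by 0.82 on the log2 scale. A2m, the other listed gene called lower on day 3, had 0 to 4 counts on day 0 and no counts on day 3, too few for a fold. On day 7, 18 were higher and 4 lower (25.6% and 24.8% of all genes), and on day 14, 8 were higher and 12 lower (28.2% and 34.5%), with a median of -0.31. Reg3g lay above these medians both as fitted and at its bound, so the use of the bound could not change them.

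**Figure D5:**
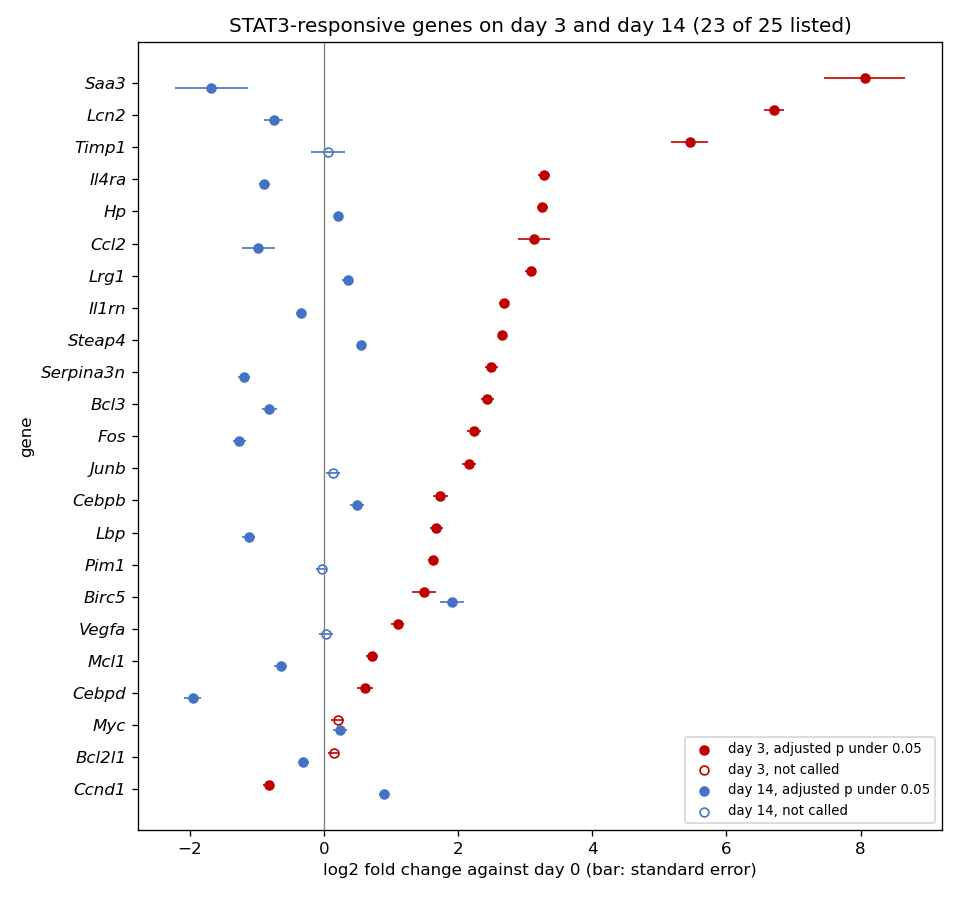
Log2 fold change against day 0 (horizontal axis, bars are standard errors) of 23 of the 25 STAT3-responsive genes on day 3 and day 14, filled where the adjusted p is under 0.05. Reg3g and A2m are not drawn because all libraries of a day were at 0 counts. On day 3 all but Ccnd1, Bcl2l1 and Myc are filled and to the right of 0.

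Markers of several cell types moved over the same days. The 9 neutrophil markers summed to 17.2 to 43.03 CPM on day 0, with Ly6g at 0 in all 4 libraries, and to 4369 to 5514 CPM on day 3, 1587 to 1998 CPM on day 5, 540 to 956 CPM on day 7, 223 to 247 CPM on day 10, 20.8 to 23.6 CPM on day 12 and 15.4 to 18.8 CPM on day 14. On day 3, 7 of the 9 were higher and 1 lower. The 9 monocyte and macrophage markers, all higher on day 3, summed to 1686 to 2616 CPM on day 0, 5604 to 5921 CPM on day 3 and 845 to 912 CPM on day 14, when all 9 were lower. Wound edge keratinocyte markers (4 genes) went from 468 to 709 CPM on day 0 to 2454 to 2984 CPM on day 3, with 3 of 4 higher. Skeletal muscle markers, all 4 lower on every later day, went from between 15000 and 25374 CPM to between 3348 and 4327 CPM on day 3. The 6 hair follicle markers were at 196 to 1362 CPM on day 0, at 4.91 to 10.8 CPM on day 3 and at 3078 to 4134 CPM on day 12. Basal keratinocyte markers (4 genes) were present in every library, at 2748 to 6510 CPM, and against day 0, 2 of the 4 were lower on day 3 and 0 higher. Matrix fibroblast markers were at 17518 to 19068 CPM on day 3, with 1 of 5 higher and 3 lower, and at 39350 to 44740 CPM on day 10, with 4 higher and 1 lower. On day 14 they were at 11729 to 14011 CPM, with all 5 lower. Myofibroblast markers (4 genes) were at 648 to 701 CPM on day 3, with 0 higher and 3 lower, and at 5638 to 6026 CPM on day 10, with 1 higher and 1 lower. Endothelial markers (4 genes) were at 351 to 523 CPM on day 0 and 716 to 785 CPM on day 3, with 3 of 4 higher. Adipocyte markers (4 genes) were at 2183 to 2889 CPM and 4243 to 5349 CPM on the same days, with 1 higher and 1 lower, and T or NK cell markers (5 genes) at 37.3 to 40.3 CPM and 20.6 to 23.1 CPM, with 0 higher and 4 lower. On day 14 the T or NK cell markers were at 12.2 to 17.2 CPM, with all 5 lower, and the hair follicle markers at 2770 to 3700 CPM, with all 6 higher. The part of these shifts in the members' changes was not tested.

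The genes most like each member over the 28 libraries, by Pearson's r of log2 CPM, are given as a description, since the libraries share the days. Osm was most like Cxcr2, a chemokine receptor and 1 of the 9 neutrophil markers (r = 0.99), and Nlrp3, an inflammasome sensor (0.99). Il6 was most like Pdpn, which encodes podoplanin (0.98), and Arrb2 (0.98). Socs3 was most like Rnd1 (0.99) and Sbno2 (0.99). Stat3 was most like Litaf (0.99) and Gcnt2 (0.99), and Osmr like Gcnt2 (0.98) and Chl1 (0.97). Lif was most like Adamts5, an aggrecanase (0.96), and Fgf7, a keratinocyte growth factor (0.96). Il11 was most like H2-Q10 (0.94) and Nipsnap3b (0.94), Clcf1 like Angptl4 (0.92) and Gsdmc2 (0.90), Il6ra like Il16 (0.98) and Rassf4 (0.97), and Il6st like Ncoa3 (0.97) and Camk1d (0.96). Among the members themselves, r was highest for Socs3 with Stat3 (0.98) and Osmr with Stat3 (0.97), and lowest for Clcf1 with Il6ra (0.17).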

How the data were processed

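RNA from skin at the wound site was sequenced in 28 libraries, 4 on each of 7 days, grouped by the time in the labels. The authors deposited raw counts per gene symbol and an FPKM table. 100% of the nonzero FPKM values were within 1% of the count divided by a constant gene length and the library total, so both tables hold the same measurement. Per the labels, reads went through fastp and R 3.2.0 with the mm10 build. The aligner, counter, annotation and strandedness are not given in the sources used here, so overlapping, antisense and near-identical genes can share reads. Positions came from GENCODE vM21 and promoters from RefSeq, both on GRCm38. All columns were mapped to samples.

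Counts were fitted in R 4.3.3 with edgeR 4.0.16 (TMM, filterByExpr, quasi-likelihood test, two-sided) in 1 fit of the 28 libraries with 21 residual degrees of freedom, and p-values were adjusted over 18107 genes (Benjamini-Hochberg). Calls are at an adjusted p under 0.05. Log2 CPM used a prior count of 2. Ratios were compared by exact permutation tests of 4 against 4 libraries. Alternatives were other normalizations and filters, DESeq2 1.42.0, limma 3.58.1 (voom with library weights, and log2(FPKM + 1) or log2(FPKM + 0.1)), fits of 8 libraries, the Xist level or the replicate number as a term, and left-out libraries. Each tool was run on simulated counts with 200 changed genes and the same spread on every day. Day 0 varied more than the other days here, so that run is no check of the comparisons with day 0. A count of 0 allows a level of up to 3 counts, for counting error only.

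The members and all lists were chosen with earlier results of these data known. Named were the members, the other ligands and receptors, and, from each of the other lists, the 3 largest rises and 2 largest falls on day 3 among called genes, with the 2 genes most like each member. 1 of the named genes is not reported here. Leaving out pairs of day 0 libraries was chosen after seeing the data.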

Additional observations from a re-analysis of the deposited data

Results flagged for a closer look

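In 5 of 70 groups of 4 libraries, where chance gives about 1 in 20, the lowest library stood apart from the other 3. Il6 in day 7 replicate 2 had a log2 CPM of 0.10, against 0.68 to 0.78 in the others. Il6ra in day 3 replicate 4 had 5.82, against 5.86 to 5.87. Il6st in day 5 replicate 4 had 8.27, against 8.90 to 9.004, and Stat3 in the same library had 7.94, against 8.10 to 8.12. Osmr in day 7 replicate 4 had 5.50, against 5.77 to 5.82. Without day 5 replicate 4, Il6st was no longer lower on day 5 than on day 3 (log2 change -0.19, edgeR adjusted p = 0.12).

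For 7 members, the values called against day 0 were higher on day 3 and lower on day 14. The log2 change from day 3 to day 14 was -8.01 for Il6, -7.10 for Osm, -3.80 for Socs3, -3.02 for Lif, -1.89 for Osmr, -1.66 for Stat3 and -1.19 for Il6st. These members were picked by calls in both directions against the same 4 day 0 libraries, so that day 14 lay below day 3 by that choice, and the values are a description. For Lif, the day 14 value against day 0 was 0.10 in place of -1.15 without day 0 replicates 2 and 3.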

How the results depend on the processing

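Of 1406 values of members recomputed under single alternatives, 1295 kept their direction and their side of the threshold, 51 lost a call, 38 gained one and 22 turned in direction. With 1 library left out, 804 of 880 were kept, 48 lost a call, 15 gained one and 13 turned. With the replicate number as a block (replicate block), 109 of 110 were kept and 1 call was gained, so that 2 members were lower on day 7 against day 0. The libraries share only a number: 1 of 84 same-numbered pairs of different days had deviations with a correlation over 0.1, and 8 of 28 libraries correlated best with their own number. The causes were not tested except where an alternative tests fewer genes or samples. Library totals alone moved the median log2 fold change of all genes by 0.14 on day 12 and 0.13 on day 14 against day 0. Limma with library weights called 3523 genes higher and 3648 lower on day 5 against day 3, where edgeR called 2339 higher and 2066 lower, and without day 0 replicates 2 and 3 the higher share of the edgeR calls was 42.1% in place of 53.1%. Il6, Il11 and Osm rest on few counts outside days 3 to 10, and Il11 on day 10 as well (13 to 36 counts per library), which limits what can be called there.

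Higher members on day 7 against day 0 (5) numbered 2 with the study's limits, with at least 10 counts in every library (which tests fewer members) or with a fit of 8 libraries, and 3 without day 0 replicates 2 and 3. They numbered 6, with Stat3 added, with library weights or without day 0 replicates 1 and 4. Lower members on that day (1) numbered 3 with DESeq2, its size factors, upper-quartile normalization or limma with library weights, 2 with no filter, at least 10 counts in every library, or either day 0 pair left out, and 0 with the study's limits. With the study's limits, 4 members were higher on day 5 and 1 on day 10, 0 were lower on days 10 and 12, and 0 were higher and 2 lower on day 14. With at least 10 counts in every library, 5 were higher on day 5, 1 on day 10, and 3 lower on day 12 against day 10. Higher members on day 10 (2) numbered 4 with library weights or without day 0 replicates 1 and 4, and those on day 12 (0) numbered 1 with these or with limma on FPKM. Lower members on day 12 (6) numbered 3 with library totals only or limma on FPKM. On day 14, a fit of 8 libraries gave 0 higher and 5 lower, and 0 were higher without day 0 replicates 2 and 3. Higher members on day 10 against day 7 (0) numbered 1 with DESeq2, library weights, limma on log2(FPKM + 1) or 8 libraries, and those on day 12 against day 10 (2) numbered 1 with upper-quartile normalization, no filter or Xist as a term. With 1 library left out, higher members ranged from 3 to 5 on day 7 (3 without day 0 replicate 3), from 0 to 1 on day 12 (1 without day 0 replicate 1) and from 1 to 2 on day 12 against day 10, and lower members from 1 to 3 on day 7.

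Some directions turned, for Lif from called values of -1.08, -0.83 and -1.15 on days 10, 12 and 14 and otherwise from values that were not called. Lif without day 0 replicates 2 and 3 was 0.68 (day 7), 0.090 (day 10), 0.36 (day 12) and 0.10 (day 14). Il6ra on day 5 was 0.14 with library weights, 0.086 without day 0 replicates 1 and 4, and -0.12 to 0.059 with 1 library left out (above 0 without day 0 or day 5 replicate 4). Il6st on day 5 was 0.18 without day 0 replicates 2 and 3, and -0.086 to 0.13 with 1 library left out (above 0 without either one or day 5 replicate 4). Socs3 on day 10 was 0.0092 with library totals only, 0.21 with library weights (adjusted p = 0.019), 0.037 and 0.043 on log2(FPKM + 1) and log2(FPKM + 0.1), 0.29 without day 0 replicates 1 and 4 (adjusted p = 0.00059), -0.32 without day 0 replicates 2 and 3 (adjusted p = 0.00034), and -0.16 to 0.12 with 1 library left out (above 0 without day 0 replicate 1 or 4). Il6 on day 12 was 0.63 with library weights, 0.0095 and 0.22 on the same scales, 0.45 without day 0 replicates 1 and 4 and -0.59 to 0.66 with 1 library left out (above 0 without day 0 replicate 1). Il11 on day 12 was -0.10 with library weights, -0.13 without day 0 replicates 1 and 4 and -0.23 (without day 12 replicate 2) to 0.47 with 1 library left out, on day 14 -0.15 with library weights, and on day 14 against day 12 -0.052 with library weights and -0.15 (without day 14 replicate 3) to 0.60 with 1 left out. Osm on day 12 was -0.20 with library weights, -0.082 without day 0 replicates 1 and 4, and -0.35 to 0.27 with 1 library left out (below 0 without day 0 replicate 2 or 4 or day 12 replicate 1).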
